A study of Arabidopsis thaliana with 12 samples.

Results

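Superoxide dismutases are the enzymes that turn superoxide into hydrogen peroxide and oxygen, and Arabidopsis builds them around iron, around copper with zinc, or around manganese. Described here are 9 genes: the iron enzyme genes FSD1, FSD2 and FSD3, the copper/zinc enzyme genes CSD1, CSD2 and CSD3, the manganese enzyme gene MSD1, the copper chaperone gene CCS and the copper regulator gene SPL7. They were chosen by locus, with no measured value in the rule but with earlier results of these data known. All 9 were among the 25169 genes of the deposited tables and passed the filter on low counts. RNA came from rosette leaves of Arabidopsis thaliana. The mutant melinoe, an ethyl methanesulfonate mutant of FMN/FHY (AT4G21470), was sampled as green, green-white and white leaves, and Col-0 leaves served as wild type, with 3 libraries in each of the 4 groups. FMN/FHY encodes the riboflavin kinase, which produces the flavin cofactor FMN. Seeds of all groups had a cold treatment of 48 h, and the seedlings spent 2 weeks on plates with 1% sucrose before soil, at 22 °C with 16 h of light (75 µmol m−2 s−1) and 8 h of darkness a day. For leaf age at sampling and any pooling of plants, the sources used here give nothing. The p-values therefore speak only to the variation among these libraries, which may be technical.

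Plants keep several superoxide dismutases in one compartment and exchange them according to metal supply. FSD1 and CSD2 both serve the chloroplast, CSD1 the cytosol, CSD3 the peroxisome and MSD1 the mitochondrion, while FSD2 and FSD3 work at the plastid nucleoids next to the plastid-encoded RNA polymerase. When copper is scarce, the transcription factor SPL7 is known to switch on FSD1 and the microRNA miR398 through GTAC motifs, and miR398 lowers the transcripts of CSD1, CSD2 and CCS; when copper is ample, FSD1 is low and the copper/zinc enzymes are high. CCS loads copper into the copper/zinc enzymes.

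The miR398 sequences and the places where they pair best with the members are shown because CSD1, CSD2 and CCS, which are known targets, were the members with the largest increases. All sequences were read from TAIR10.1. The mature 3p strands of the 3 annotated precursors follow, 5′ to 3′, with the seed (bases 2 to 8) in capitals. They are 21 bases long, share 1 seed, and form 2 distinct sequences.
miR398a-3p: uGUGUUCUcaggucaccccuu
miR398b-3p: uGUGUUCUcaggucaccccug
miR398c-3p: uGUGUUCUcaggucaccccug
The best pairing of each annotated transcript was then found with 1 point for an unpaired base, 0.5 for a G:U pair and 1 for a bulged target base, with at most 1 bulge allowed, so that 0 is perfect. The target stretches of 3 members and of COX5B-1, another known target that encodes a cytochrome c oxidase subunit, follow in DNA letters, 5′ to 3′ on the transcript strand, with the bases opposite the seed in capitals. In CSD2 and COX5B-1 the capitals also hold 1 bulged base.
CSD1: aaggggtttcctgAGATCACa
CSD2: tgcgggtgacctgGGAAACATa
CCS: attgggagacctgGGAACACt
COX5B-1: aaggtgtgacctgAGAATCACa
The CSD1 stretch lies in the 5′ UTR across exons 1 and 2 (chr1:2827177-2827685, plus strand, a span that includes the intron), scored 3.0, and was matched or beaten by 4 of 31340 loci with an annotated mRNA, itself included. In CSD2 the stretch is in the coding part of exon 4 (chr2:12015572-12015593, plus strand) with 1 bulged base, and at a score of 4.0 it stood among 39 loci. The CCS stretch is coding sequence of exon 6 (chr1:4267521-4267541, minus strand), with a score of 4.5 that 152 loci reached. COX5B-1, with 1 bulged base, scored 2.0 in its 5′ UTR (chr3:5299204-5299225, plus strand), which 2 loci reached. For the remaining members the best pairing scored 5.5 in FSD1, a value that 5.84% of loci reached, 6.5 in SPL7 (34.8% of loci) and 7.0 in FSD2, FSD3, CSD3 and MSD1 (61.4% of loci). A pairing is a description of the letters and does not show that a transcript is cut.

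**Figure D1:**
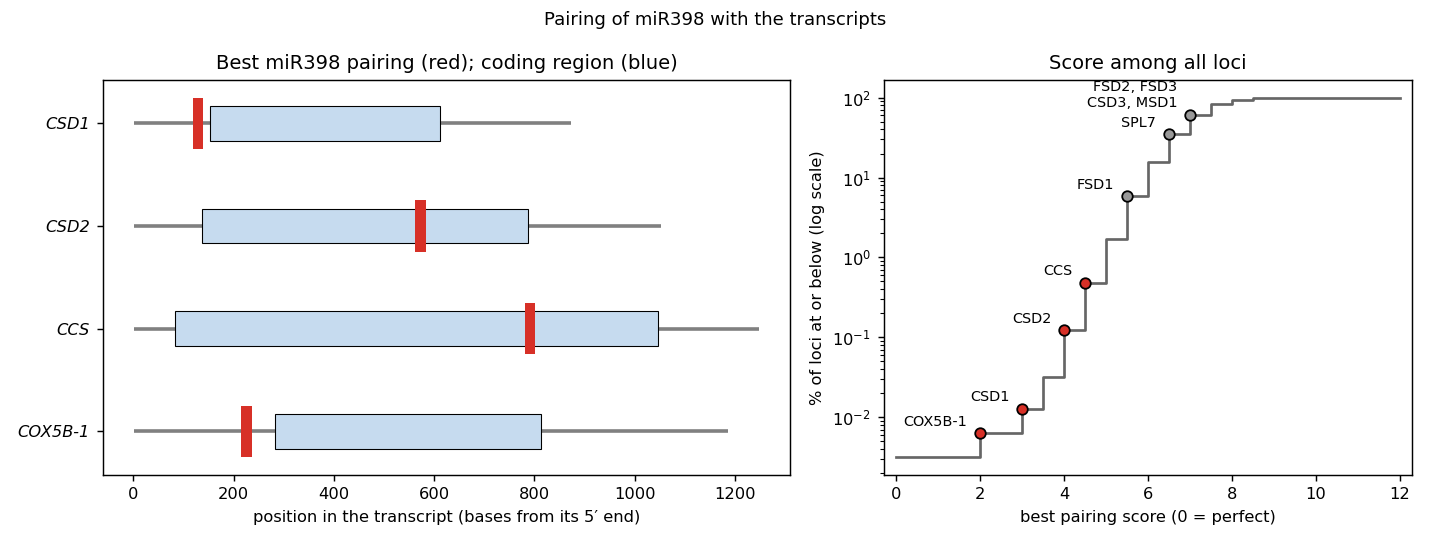
Left, the transcripts of CSD1, CSD2, CCS and COX5B-1 from their 5′ ends in bases, with the coding region in blue and the best miR398 pairing in red; right, the share of 31340 loci (%, log scale) at or below each pairing score, with the members and COX5B-1 marked. The red stretches lie before the coding region in CSD1 and COX5B-1 and within it in CSD2 and CCS, and these 4 genes have the lowest scores of the 10 marked, from 2.0 to 4.5.

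The GTAC motif, which reads the same on both strands, was counted in the 250 bases before each annotated gene start; 34.3% of 27443 protein-coding genes hold at least 1 copy there, 7.67% at least 2 and 1.44% at least 3. CSD1 held 2 copies, FSD1, CSD3 and CCS 1 each, and FSD2, FSD3, CSD2, MSD1 and SPL7 none. Before the hairpins of the microRNA genes there were 5 copies at MIR398b, 3 at MIR398c and none at MIR398a; those hairpin starts are not transcription starts. The window of FSD1 (chr4:12887012-12887261, minus strand, read 5′ to 3′) is printed because FSD1 had the largest change of the members, with GTAC in capitals.
FSD1: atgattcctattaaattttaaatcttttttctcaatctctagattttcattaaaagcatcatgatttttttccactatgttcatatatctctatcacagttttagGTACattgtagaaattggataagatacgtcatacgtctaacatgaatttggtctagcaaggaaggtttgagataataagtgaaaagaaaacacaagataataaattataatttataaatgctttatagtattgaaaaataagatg
The letters of this window say nothing about whether SPL7 binds there. The precursors of miR398 were absent from the deposited counts, so their transcript levels could not be read.

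Library totals lay between 25795702 and 26760055 expected counts. Levels below are CPM, counts scaled by the library total and its TMM factor; log2 fold changes come with their standard errors from edgeR's quasi-likelihood fit of all 12 libraries, and a gene is called, or said to rise or fall, at a Benjamini-Hochberg adjusted p under 0.05 over 19424 genes. The TMM factors followed the groups: those of green-white and white libraries ran from 1.08 to 1.12, and those of green and wild-type libraries from 0.903 to 0.929. With library totals alone, the median log2 difference of all genes from wild type was 0.216 in green-white and 0.293 in white leaves, against −0.035 and −0.001 with TMM, and the share of calls that were higher was 69.9% and 68.4%, against 46.8% and 49.9%. Over green leaves the medians of green-white and white leaves were 0.232 and 0.269, against −0.001 and −0.007 with TMM, and 80% and 73.5% of calls were higher, against 49.7% and 50%. Differences of that size or smaller between these groups depend on the scaling. With library totals alone, falls of CSD3 and MSD1 shrink, vanish or turn round, and small increases of FSD1, FSD2, FSD3 and SPL7 become larger. The values are given beside each gene. Library totals alone were added as a setting after the factors had been seen. The mutated gene FMN/FHY averaged 22.1 ± 0.637 CPM in green leaves, 23.6 ± 0.116 in green-white leaves and 24.4 ± 0.669 in white melinoe leaves, and 23.3 ± 1.23 in wild type (SD, n = 3 each), with adjusted p = 0.232, 0.726 and 0.188 over wild type; a point mutation need not alter the level, so this does not check the labels. The leaf label was met by mesophyll markers, all 4 of which were detected in all groups, and root markers summed to at most 0.614 CPM.

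FSD1 fell in every melinoe leaf class, most of all in white leaves. FSD1 (AT4G25100, chr4:12884300-12887011, minus strand) had 99, 98.9 and 92.4 CPM in green, 108, 111 and 105 in green-white and 10.9, 9.72 and 10.5 in white melinoe leaves, against 499, 540 and 529 CPM in wild type. No melinoe library came near a wild-type one, and the white libraries lay far below the other melinoe libraries. Relative to wild type, green leaves gave a log2 fold change of −2.43 ± 0.036 (adjusted p = 2.75e-31), green-white leaves −2.28 ± 0.035 (adjusted p = 4.66e-31) and white leaves −5.65 ± 0.047 (adjusted p = 1.72e-38). In white leaves that is a 50.3-fold lower level, and 99.5% of the tested genes had a smaller absolute change.

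Between the melinoe leaf classes FSD1 did not fall stepwise. Green-white leaves held slightly more FSD1 than green leaves (log2 difference 0.16 ± 0.038, adjusted p = 0.000571, and 0.39 with library totals alone), and white leaves held 10.4-fold less than green-white leaves (log2 difference −3.38 ± 0.051, adjusted p = 2.52e-31). The summed level of the 4 mesophyll markers was 27500 to 28800 CPM in green, 14000 to 14400 in green-white and 9620 to 9780 in white melinoe leaves, and 25700 to 26300 in wild type, with no marker at 0 in any group. In whole leaves, fewer cells of a type and less RNA per cell cannot be told apart, and the part of the markers' decline in the FSD1 values was not tested. Over wild type all 4 mesophyll markers fell in green-white and in white leaves, with median log2 fold changes of −0.983 and −2.105. In green leaves 1 rose, 1 fell and the median log2 fold change of the 4 was −0.02. RBCS1A was the largest part of the sums, at 7520 CPM in white leaves and 13000 in wild type. LHCB1.2 had 947 and 7970 CPM there, CA1 265 and 2910, and GLDP1 952 and 2090.

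The nucleoid enzymes FSD2 and FSD3 did not follow FSD1. FSD2 (AT5G51100, chr5:20773235-20775739, minus strand) had 10.4, 11.1 and 9.18 CPM in green, 20.4, 21.7 and 19.8 in green-white and 20.7, 21.3 and 20.8 in white melinoe leaves, against 13.3, 14.9 and 14.7 CPM in wild type. It was below wild type in all green libraries and above it in all green-white and white libraries, without overlap. The log2 fold changes were −0.49 ± 0.073 (adjusted p = 1.01e-06), 0.53 ± 0.062 (adjusted p = 6.04e-09) and 0.55 ± 0.062 (adjusted p = 1.85e-09) in green, green-white and white leaves. The white value of FSD2 was 0.84 with library totals alone. White and green-white leaves overlapped for FSD2 (log2 difference 0.02 ± 0.056, adjusted p = 0.766).

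FSD3 rose in green-white leaves and further in white leaves. FSD3 (AT5G23310, chr5:7850444-7852534, plus strand) had 12.4, 13.6 and 13.4 CPM in green, 15.2, 14.5 and 15.8 in green-white and 24.5, 21.2 and 24.7 in white melinoe leaves, against 13.5, 13.2 and 12.9 CPM in wild type. Green leaves overlapped wild type (log2 fold change −0.01 ± 0.072, adjusted p = 0.906), and the other classes lay above it. The increase was small in green-white leaves (0.20 ± 0.068, adjusted p = 0.00937, and 0.0876 with upper-quartile factors, where the value was 0.13; it was 0.45 with library totals alone) and larger in white leaves (0.83 ± 0.063, adjusted p = 2.34e-13). White leaves also exceeded green-white leaves by 0.63 ± 0.059 on the log2 scale (adjusted p = 9.16e-11). The difference of green-white from green leaves was 0.21 for FSD3, and 0.45 with library totals alone.

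CSD1 and CSD2 rose in all 3 melinoe leaf classes, in the order green, green-white, white, and CSD3 did not rise with them. CSD1 (AT1G08830, chr1:2827060-2829315, plus strand) had 121, 116 and 108 CPM in green, 242, 244 and 224 in green-white and 276, 286 and 275 in white melinoe leaves, against 76, 83.6 and 75.9 CPM in wild type. The 4 groups did not overlap. Over wild type, green leaves gave a log2 fold change of 0.55 ± 0.044, green-white leaves 1.59 ± 0.042 and white leaves 1.83 ± 0.042 (adjusted p = 1.56e-12, 2.49e-25 and 2.88e-27). CSD1 overlaps AT1G08840 on the other strand, and the strand setting of the counting is not given in the sources used here, so reads of the overlap could belong to either gene.

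CSD2, the chloroplast copper/zinc enzyme, had the largest increase of the members in every melinoe class. CSD2 (AT2G28190, chr2:12014412-12016569, plus strand) had 172, 161 and 165 CPM in green, 325, 329 and 340 in green-white and 446, 429 and 450 in white melinoe leaves, against 74.4, 81.4 and 78.4 CPM in wild type. Each melinoe class stood clear of the others and of wild type. Green leaves held 2.13-fold more CSD2 than wild type (log2 1.09 ± 0.037, adjusted p = 5.64e-22), green-white leaves 4.24-fold (2.09 ± 0.036, adjusted p = 5.17e-30) and white leaves 5.66-fold (2.50 ± 0.036, adjusted p = 1.4e-32). Among the melinoe classes, green-white leaves exceeded green leaves by 1.00 ± 0.033 and white leaves exceeded green-white leaves by 0.42 ± 0.032 on the log2 scale (adjusted p = 5.74e-22 and 5.21e-13). White leaves therefore differed less from green-white leaves than green-white from green leaves, and CSD1 had the same shape, at 0.24 ± 0.038 against 1.04 ± 0.040; the difference between these steps was not tested.

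CSD3, the peroxisomal enzyme, changed little, and its direction depends on the scaling. CSD3 (AT5G18100, chr5:5987187-5988885, plus strand) had 25.7, 24.9 and 23.1 CPM in green, 20.4, 21.5 and 21.8 in green-white and 21.9, 22.4 and 22.3 in white melinoe leaves, against 25.9, 28.9 and 27.9 CPM in wild type. All melinoe libraries were below the wild-type ones, the highest green library by a narrow margin. Green leaves gave a log2 fold change of −0.17 ± 0.053 (adjusted p = 0.0083), green-white leaves −0.38 ± 0.053 (adjusted p = 1.79e-07) and white leaves −0.31 ± 0.053 (adjusted p = 2.97e-06). With library totals alone the green-white value of CSD3 over wild type was −0.13 (called) and the white value −0.02 (adjusted p = 0.753), and its differences from green leaves turned to 0.02 for green-white and 0.13 for white leaves (adjusted p = 0.734 and 0.0264), against −0.21 and −0.15 with TMM. The call of white over green leaves also ended with DESeq2 (adjusted p = 0.0792). The green call over wild type ended without green C (adjusted p = 0.182), wild type B (0.15) or wild type C (0.081), and with DESeq2 (0.0569). CSD3 overlaps AT5G02875 and AT5G18110, both on the other strand.

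MSD1, the mitochondrial enzyme, stayed within a narrow band. MSD1 (AT3G10920, chr3:3417940-3419892, plus strand) had 145, 144 and 137 CPM in green, 130, 127 and 128 in green-white and 112, 114 and 111 in white melinoe leaves, against 136, 138 and 139 CPM in wild type. Green leaves overlapped wild type, and green-white and white leaves lay below it on this scale. Set against wild type, MSD1 gave a log2 fold change of 0.05 ± 0.032 for green leaves (adjusted p = 0.224, and 0.00825 without green C), −0.10 ± 0.031 for green-white leaves (adjusted p = 0.00463) and −0.30 ± 0.032 for white leaves (adjusted p = 5.38e-10). Leaving out a wild-type library ended the green-white call of MSD1, at an adjusted p of 0.0526 without A, 0.0925 without B and 0.109 without C, as did DESeq2 (0.0558). With library totals alone the green-white value turned to 0.15 (adjusted p = 6.61e-05) and the white value was −0.00 (adjusted p = 0.934), so a fall of MSD1 over wild type rests on the scaling factors. Green-white leaves over green leaves likewise gave −0.15 with TMM but 0.09 with library totals alone (adjusted p = 0.0138), and white over green leaves −0.34 with TMM but −0.07 with library totals alone (adjusted p = 0.0518).

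The chaperone gene CCS rose in all 3 melinoe leaf classes, as did CSD1 and CSD2 but not CSD3. CCS (AT1G12520, chr1:4267074-4268982, minus strand) had 56.7, 56.8 and 56 CPM in green, 108, 105 and 106 in green-white and 175, 177 and 184 in white melinoe leaves, against 33.3, 32.8 and 34.1 CPM in wild type. Its 4 groups were separate, in the same order as those of CSD1 and CSD2. Green leaves gave a log2 fold change over wild type of 0.76 ± 0.041 (adjusted p = 8.7e-17), green-white leaves 1.67 ± 0.038 (adjusted p = 5.38e-27) and white leaves 2.42 ± 0.036 (adjusted p = 5.22e-32), or 5.35-fold. White leaves exceeded green-white leaves by 0.75 ± 0.031 on the log2 scale (adjusted p = 1.31e-19).

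SPL7, the copper-responsive transcription factor, rose modestly. SPL7 (AT5G18830, chr5:6275895-6280681, plus strand) had 16.8, 18.3 and 18 CPM in green, 18.2, 19 and 19.3 in green-white and 21.5, 23.3 and 22.5 in white melinoe leaves, against 15.1, 15.4 and 17.1 CPM in wild type. White leaves were above all other groups, while green leaves overlapped wild type. The log2 fold change of SPL7 over wild type was 0.16 ± 0.062 for green leaves (adjusted p = 0.0291), 0.25 ± 0.060 for green-white leaves (adjusted p = 0.000452) and 0.50 ± 0.058 for white leaves (adjusted p = 3.3e-09). The green call ended with upper-quartile factors (adjusted p = 0.116), with DESeq2 (0.0808) and without wild type A (0.0557). SPL7 with library totals alone stood at 0.50 in green-white and 0.80 in white leaves over wild type, and at 0.62 in white over green leaves, against 0.34 with TMM.

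**Figure D2:**
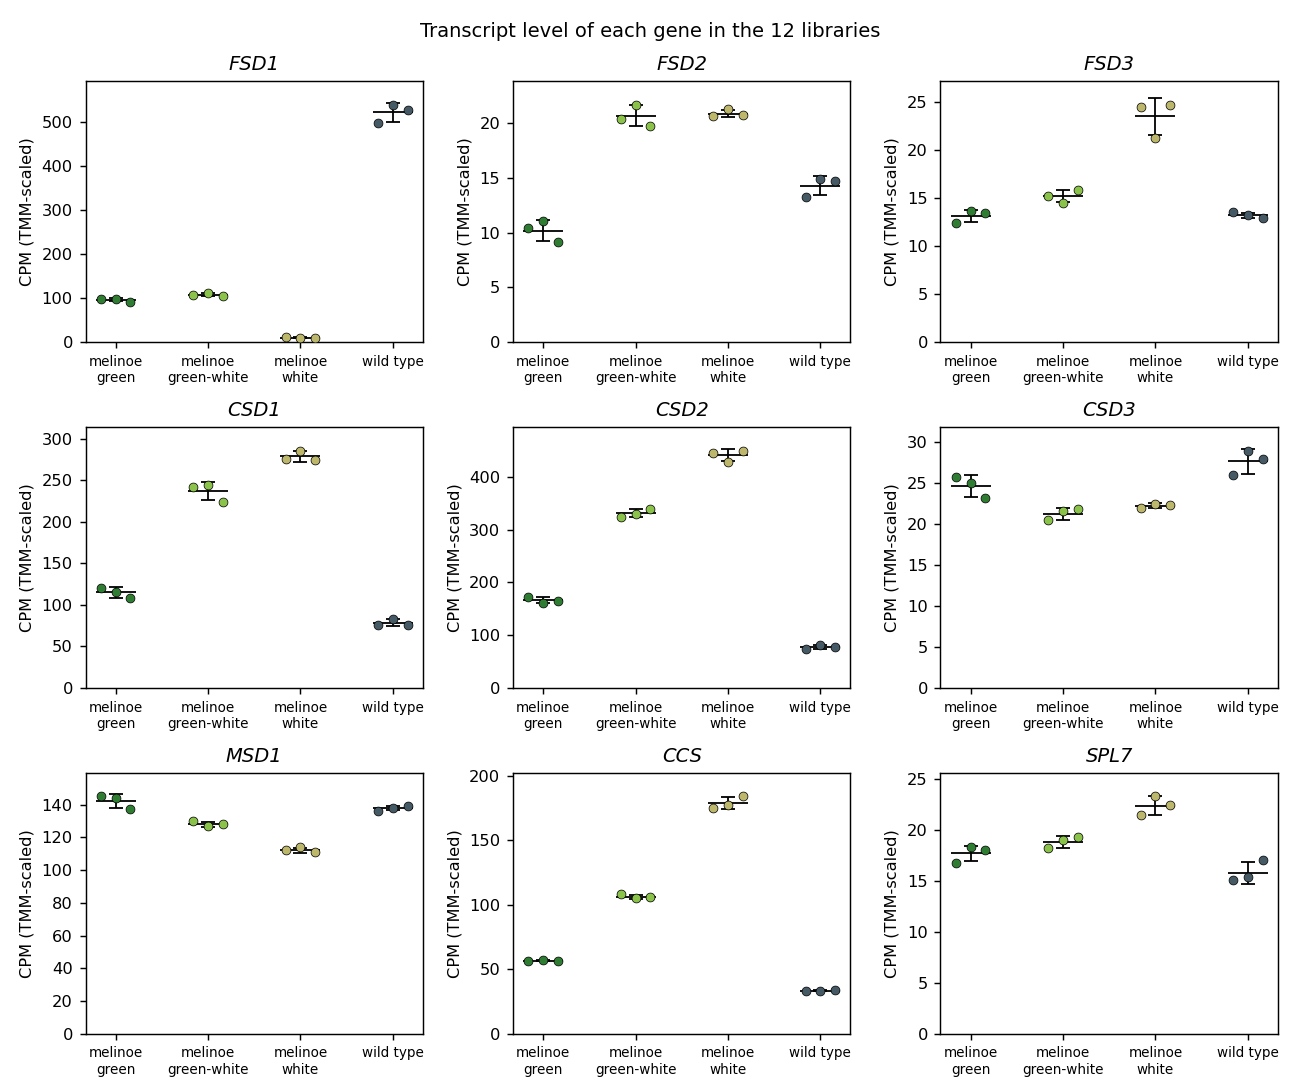
TMM-scaled CPM of the 9 genes in the 12 libraries, with melinoe green, green-white and white leaves and then wild type from left to right; points are libraries, and the horizontal line and bars are the mean and SD of 3. FSD1 is highest in wild type at 499 to 540 CPM, whereas CSD1, CSD2 and CCS are lowest in wild type and highest in white leaves.

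Of the 9 members, 4 rose and 3 fell in green leaves over wild type, where 28.7% of all tested genes were called higher and 29.6% lower. In green-white leaves over wild type 6 rose and 3 fell, against 34.1% of all genes higher and 38.8% lower. With library totals alone 7 rose and 2 fell, where 69.9% of all calls were higher. White leaves over wild type gave 6 higher and 3 lower, against a background of 39.9% higher and 40% lower. With library totals alone 6 were higher and 1 lower (FSD1), where 68.4% of all calls were higher. Since 11321 to 15521 of the 19424 tested genes passed the test in these comparisons, sizes are given beside the counts. In white leaves the absolute log2 changes of FSD1, CSD2, CCS and CSD1 exceeded those of 99.5, 94.8, 94.5 and 90% of tested genes, and that of CSD3 exceeded 35.1%. The median log2 fold change of the members was 0.045 in green leaves, 0.25 in green-white leaves and 0.549 in white leaves, against −0.008, −0.035 and −0.001 over all tested genes.

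The same genes were also compared within melinoe. White over green leaves gave 6 members higher and 3 lower, where 36.3% of all genes were higher and 36.3% lower. With library totals alone 7 were higher and 1 lower, where 73.5% of all calls were higher. Green-white over green leaves gave 6 higher, 2 lower and SPL7 not called (0.09 ± 0.059, adjusted p = 0.185), where 29.6% were higher and 29.9% lower. That comparison with library totals alone gave 8 higher and none lower, where 80% of all calls were higher. SPL7 was called in that setting (0.32, adjusted p = 1.61e-05) and CSD3 was not. White over green-white leaves gave 5 higher, 2 lower (FSD1 and MSD1) and FSD2 and CSD3 not called, where 33.5% were higher and 30.8% lower. CCS had the largest increase from green to white leaves, at 1.66 ± 0.034 on the log2 scale (adjusted p = 2.34e-28), ahead of CSD2 (1.41 ± 0.033) and CSD1 (1.28 ± 0.040).

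**Figure D3:**
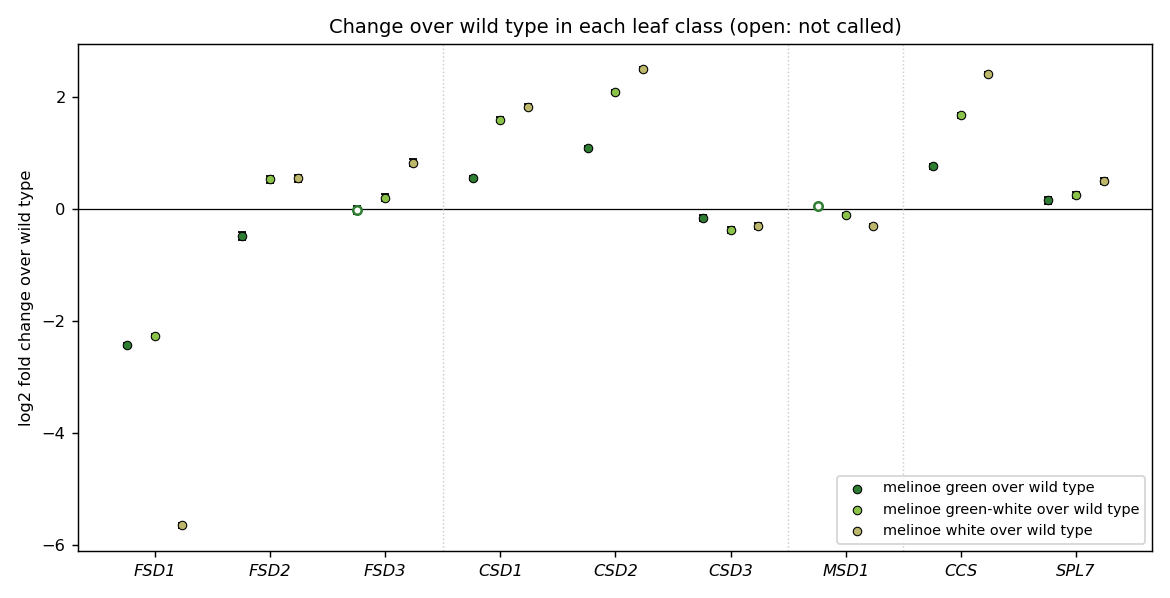
Log2 fold change of each gene over wild type in melinoe green, green-white and white leaves; bars are standard errors of the fit, mostly hidden by the points, and open points were not called. FSD1 lies far below 0 in all 3 classes, at −5.65 in white leaves, while CSD1, CSD2 and CCS climb from green to white leaves.

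Levels of different genes can be compared only per length, so the order of the members was read from TPM values computed from the counts and the median length of each gene's annotated transcripts, with no TMM factor. FSD1 headed the wild type at 588.9 ± 18.7 TPM, followed by MSD1 at 174.2 ± 1.29, CSD1 at 124.5 ± 5.81 and CSD2 at 98.69 ± 3.55 TPM (SD, n = 3). CSD2 headed every melinoe class instead, at 213.6 ± 6.31 TPM in green leaves, 531.6 ± 13.3 in green-white leaves and 749.9 ± 20.5 in white leaves, with CSD1 next at 185.9 ± 7.81, 476.7 ± 21 and 594.1 ± 11.6 TPM. FSD1 took rank 4 of the 9 genes in green leaves at 111 ± 2.65 TPM and in green-white leaves at 154.4 ± 3.22 TPM. In white leaves FSD1 was next to last at 15.72 ± 0.976 TPM, below FSD3 at 33.15 ± 2.83 and FSD2 at 32.06 ± 0.43 TPM, while CCS had reached rank 3 at 255.7 ± 7.22 TPM. SPL7 was lowest in every group, at 8.34 ± 0.47 TPM in green leaves, 11.07 ± 0.351 in green-white leaves and 13.93 ± 0.542 in white leaves and 7.334 ± 0.497 in wild type. Neighbours in this order did not overlap between libraries except CSD1 and MSD1 in green leaves and FSD3 and FSD2 in white leaves. On the TPM scale MSD1 runs the other way than on the CPM scale, at 206 ± 3.22 TPM in green-white, 190.2 ± 2.36 in white leaves and 174.2 ± 1.29 in wild type, and so does CSD3 in white leaves, at 67.02 ± 0.788 TPM against 61.99 ± 2.82 in wild type.

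The make-up of the superoxide dismutase transcripts turned from iron to copper/zinc. Of the summed TPM of the 7 enzyme genes, the iron genes took 17.65 ± 0.399% in green leaves, 13.83 ± 0.155% in green-white leaves and 4.81 ± 0.173% in white melinoe leaves, and 57.4 ± 0.351% in wild type (SD, n = 3 each). The copper/zinc genes took 58.76 ± 0.656% in green leaves, 72.25 ± 0.156% in green-white leaves and 83.88 ± 0.0954% in white leaves, and 26.44 ± 0.462% in wild type. MSD1 took 23.59 ± 0.265% in green, 13.92 ± 0.255% in green-white, 11.31 ± 0.2% in white leaves and 16.16 ± 0.46% in wild type. The groups did not overlap in any of the 3 shares; no p is given, since the shares are sums over chosen genes. The summed TPM itself was 775.5 ± 14.9 in green leaves, 1480 ± 9.34 in green-white leaves and 1682 ± 9.86 in white leaves, and 1078 ± 29.1 in wild type. On this scale green leaves held the lowest sum and white leaves the highest. TPM carries no TMM factor, so how far green-white and white leaves exceed wild type in this sum depends on the scaling. Nearly all of the iron share in wild type was FSD1, at 54.6 ± 0.37% of the sum. Without FSD1 the iron share was 3.899% in green leaves, 3.787% in green-white leaves and 3.913% in white leaves, and 6.175% in wild type.

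**Figure D4:**
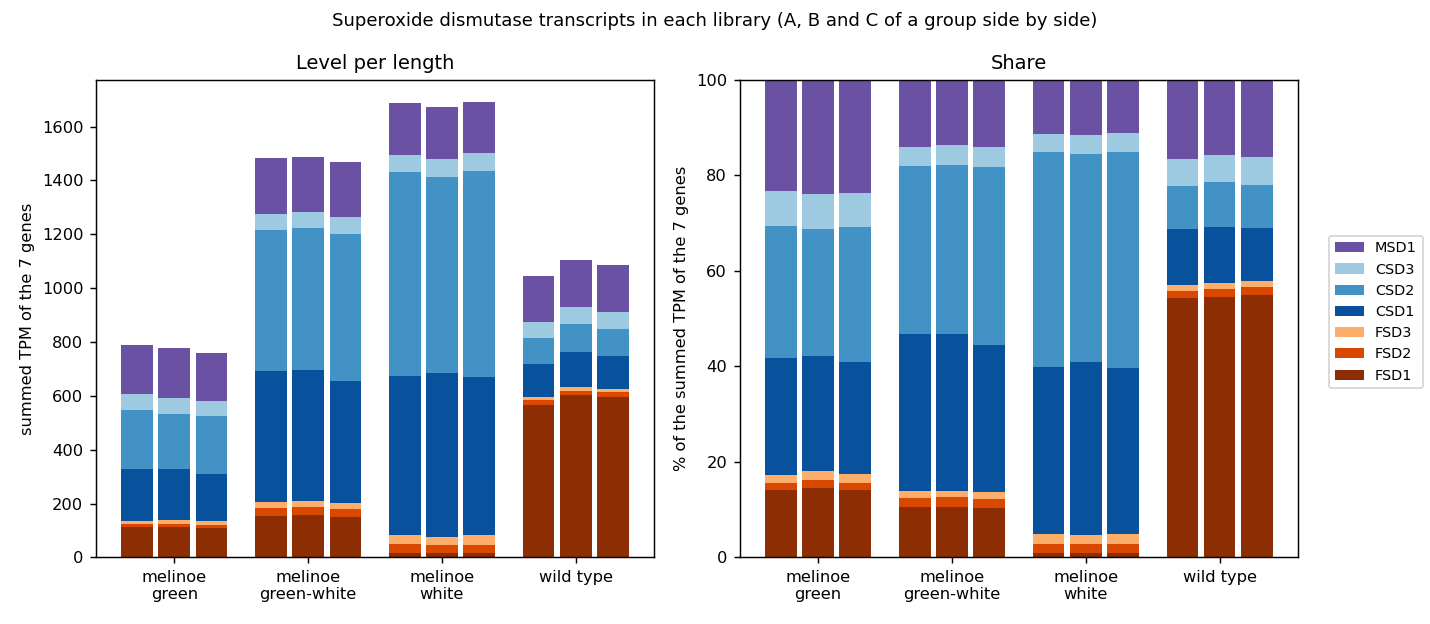
Summed TPM of the 7 superoxide dismutase genes (left) and the share of each gene in percent (right), with 1 bar per library and melinoe green, green-white, white and wild-type libraries from left to right. FSD1 fills 54.2 to 55.0% of the wild-type bars and 0.877 to 0.982% of the white bars, where CSD1 and CSD2 fill most.

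Ratios between members were read library by library from the same TPM values as the shares, so they are no further evidence. CSD2 over FSD1 in TPM was 1.93 ± 0.0895 in green leaves, 3.45 ± 0.155 in green-white leaves and 47.8 ± 1.93 in white melinoe leaves, against 0.168 ± 0.00142 in wild type (SD, n = 3 each). CSD2 over CSD1 was above 1 in all melinoe libraries, at 1.15 ± 0.0591 in green leaves, 1.12 ± 0.0789 in green-white leaves and 1.26 ± 0.0585 in white leaves, and below 1 in all wild-type libraries, at 0.793 ± 0.0261. CCS per summed CSD1, CSD2 and CSD3 was 0.135 ± 0.00495 in green leaves, 0.135 ± 0.00239 in green-white leaves and 0.181 ± 0.00446 in white leaves, and 0.125 ± 0.00759 in wild type. White leaves thus had more CCS transcript per copper/zinc enzyme transcript than any other group, without overlap between libraries.

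The genes most like FSD1 and CSD2 over the 12 libraries were found by the root mean square difference of log2 CPM after centring on wild type, among 6659 genes with a symbol and a mean of at least 5 CPM. For FSD1 they were RBCS2B (0.733), MSRB5 (0.74) and LHCB2.3 (0.752). RBCS2B encodes a Rubisco small subunit and LHCB2.3 a light-harvesting antenna protein. In white leaves their log2 fold changes over wild type were −4.88, −4.69 and −4.89, and in green leaves −1.17, −1.43 and −1.13, where FSD1 had −2.43. For CSD2 the nearest were PDF1.4 (0.0735), NAC047 (0.139) and Fes1A (0.183), and PDF1.4 had log2 fold changes of 1.22, 2.36 and 2.71 in green, green-white and white leaves over wild type.

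SPL7 is known to control further copper genes, and these went in different directions. The list held 9 such genes, of which 7 were tested. In green leaves over wild type 3 rose and 1 fell, with a median log2 fold change of 0.232, where 28.7% of all tested genes were higher and 29.6% lower. YSL2, a transporter of metal chelates, rose by 0.41 ± 0.061 on the log2 scale (adjusted p = 8.34e-07), the copper transporter genes COPT1 by 0.31 ± 0.035 and COPT6 by 0.23 ± 0.047, and the reductase gene FRO4 fell (−0.75 ± 0.075, adjusted p = 2.89e-10). In green-white leaves 6 fell and 1 rose (FRO5, on few counts), with a median of −0.538, where 34.1% of all tested genes were higher and 38.8% lower. The call of COPT1 (−0.31) ended there with library totals alone (−0.06, adjusted p = 0.141). COPT2, a copper transporter of the plasma membrane, fell by 1.25 ± 0.108 on the log2 scale, the copper chaperone CCH by 0.93 ± 0.038 and FRO4 by 0.60 ± 0.071 (adjusted p = 6.28e-12, 3.81e-20 and 5.66e-09).

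In white leaves over wild type 4 genes of this list were higher and 3 lower, with a median of 0.175. Of all tested genes 39.9% were higher and 40% lower there, so the split alone does not set the list apart. COPT2 had 0.627, 0.384 and 0.521 CPM in white leaves, against 7.94, 10.3 and 9.71 CPM in wild type, a log2 fold change of −4.17 ± 0.167 (adjusted p = 1.22e-20). YSL2 (−3.47 ± 0.103) and CCH (−2.54 ± 0.043, adjusted p = 8.68e-31) fell too. FRO4 rose by 0.60 ± 0.061, COPT6 by 0.28 ± 0.045 and COPT1 by 0.17 ± 0.035. FRO5, a neighbouring reductase gene, was at 0 counts in all wild-type libraries and had 37 counts over the white libraries, at least 3.47-fold higher against a floor of 3 counts per library, and 7 counts over the green-white and 2 over the green libraries, under that floor. With FRO5 at its bound, or left out where it was under the floor, the list's median was 0.201 in green leaves, −0.57 in green-white leaves and 0.175 in white leaves. FSD1 and COPT2 were both lowest in white leaves. In green leaves FSD1 was 5.4-fold lower than wild type and COPT2 was not called (0.17 ± 0.091, adjusted p = 0.109). A shared cause of their changes was not tested.

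Targets of copper microRNAs other than the members were mostly laccase genes, whose copper enzymes act in the cell wall. Of 8 tested, 3 rose and 3 fell in green, 3 rose and 3 fell in green-white, and 3 rose and 4 fell (3 fell with library totals alone) in white leaves over wild type, with medians of −0.104, 0.029 and −0.521. Of all calls in white leaves, 68.4% were higher with library totals alone. Among all tested genes 28.7%, 34.1% and 39.9% were higher and 29.6%, 38.8% and 40% lower. COX5B-1, which shares the miR398 pairing shown above, rose by 0.26 ± 0.050 in white (adjusted p = 2.37e-05) and 0.20 ± 0.051 in green-white leaves (adjusted p = 0.000657) and was not called in green leaves (−0.03 ± 0.053, adjusted p = 0.624). LAC7 had 315 counts over the white libraries and 3 over the wild-type ones, a ratio of 88.6 with a 95% counting interval of 30 to 432, and 300 counts over the green-white libraries, a ratio of 84.9 (28.8 to 414). ARPN, a plantacyanin gene, had a ratio of 5.53 in white leaves (2.73 to 12.7) on 59 counts against 9. In green leaves LAC7 had 41 counts against 3, a ratio of 13.6 (4.33 to 68.5), and ARPN a ratio of 4.64 (2.22 to 10.8). The lignin laccase genes LAC4 and LAC17 fell in all 3 classes. LAC4 fell by 2.31 ± 0.173 on the log2 scale in green leaves, 0.60 ± 0.128 in green-white leaves and 1.06 ± 0.137 in white leaves, and LAC17 by 1.85 ± 0.159, 1.07 ± 0.135 and 1.65 ± 0.147. LAC2 was lower as well, with 4 counts over the green and 49 over the wild-type libraries, a ratio of 0.0811 (0.0213 to 0.221). The summed level of 5 xylem markers moved with LAC4, LAC17 and LAC2 but not with LAC7. It was 5.55 to 6.84 CPM in green, 11.8 to 14.1 in green-white and 6.85 to 7.97 in white leaves and 25.6 to 27 in wild type, with none at 0. Its part in the laccase values was not tested.

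Copper transport and chaperone genes outside the SPL7 list went both ways. Of 13 tested, 6 rose and 5 fell in green, 7 rose and 5 fell in green-white and 7 rose and 5 fell in white leaves over wild type. Among all tested genes 28.7%, 34.1% and 39.9% were higher and 29.6%, 38.8% and 40% lower. With library totals alone the green-white and white counts of the list were 8 higher and 1 lower each, where 69.9% and 68.4% of all calls were higher. The list's medians were 0.07, 0.141 and 0.145. The copper pump gene HMA5 rose by 1.91 ± 0.146 in white leaves (adjusted p = 2.13e-13), and the copper carriers of mitochondrial cytochrome c oxidase COX17-1 and COX17-2 by 1.55 ± 0.114 and 1.29 ± 0.079 (adjusted p = 1.03e-13 and 1.07e-15). HCC2, a relative of a cytochrome c oxidase assembly factor, rose by 1.06 ± 0.092 there. PAA2, the pump that moves copper into the thylakoid lumen, fell by 0.56 ± 0.037 in green and 0.43 ± 0.036 in green-white leaves (adjusted p = 2.15e-14 and 4.59e-12), and in white leaves its log2 fold change was −0.27 ± 0.036, but 0.03 (adjusted p = 0.535) with library totals alone. HMA1, a metal pump of the chloroplast envelope, had −0.34 ± 0.037 in white leaves (adjusted p = 6.67e-10), and −0.05 (adjusted p = 0.25) with library totals alone.

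Plastocyanin, the copper protein of the thylakoid lumen and the other large user of chloroplast copper, fell while CSD2 rose. PETE2 had 3070, 3050 and 3070 CPM in green, 1660, 1690 and 1700 in green-white and 1080, 1080 and 1040 in white melinoe leaves, against 3750, 3840 and 3730 CPM in wild type. The 4 groups did not overlap. The log2 fold change of PETE2 was −0.30 ± 0.025 in green leaves, −1.17 ± 0.025 in green-white leaves and −1.83 ± 0.025 in white leaves (adjusted p = 2.88e-12, 1.31e-27 and 6.65e-33), and PETE1 gave −0.24 ± 0.030, −1.24 ± 0.031 and −2.02 ± 0.032. The mesophyll sums and medians given beside FSD1 declined from green to white leaves as well, and their part was not tested.

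CPN20, the chloroplast co-chaperonin known to help activate FSD1, rose by 0.46 ± 0.032 in white (adjusted p = 2.82e-14) and 0.14 ± 0.032 in green-white leaves (adjusted p = 0.000368, and 0.0896 with upper-quartile factors) and fell by 0.12 ± 0.033 in green leaves (adjusted p = 0.0018). MTM1, a mitochondrial carrier known from yeast to serve manganese superoxide dismutase, rose by 0.31 ± 0.096 in green and 0.31 ± 0.093 in green-white leaves and was lower in white leaves (−0.32 ± 0.102), where the value with library totals alone was −0.03 (adjusted p = 0.792). MSD2, a further manganese enzyme gene, had 53 counts over the white, 7 over the green-white and 5 over the green libraries, against 2 over the wild-type libraries, and the white ratio was 22.4 with a 95% counting interval of 5.89 to 189. Of the 4 genes of this list, 1 rose and 1 fell in green, 2 rose and none fell in green-white and 2 rose and 1 fell in white leaves over wild type, with medians of 0.19, 0.221 and 0.178. Among all tested genes 28.7%, 34.1% and 39.9% were higher and 29.6%, 38.8% and 40% lower. With library totals alone 3 genes of the list rose and none fell in green-white and in white leaves. In that setting 69.9% and 68.4% of all calls were higher.

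FSD2 and FSD3 are known as subunits associated with the plastid-encoded RNA polymerase, and the other 10 genes of that complex were mostly higher where FSD3 was higher. In green leaves 4 rose and none fell (median 0.063), in green-white leaves 8 rose and 2 fell (median 0.332), and in white leaves 9 rose and 1 fell (median 0.872) over wild type, where 28.7%, 34.1% and 39.9% of all tested genes were higher. The green-white and white counts with library totals alone were 9 higher and none lower each, where 69.9% and 68.4% of all calls were higher. In green-white leaves with library totals alone PTAC6 turned to 0.10 (adjusted p = 0.00962), against −0.15 with TMM. PTAC7 lost its call there (−0.34 with TMM, −0.09 and adjusted p = 0.102 with library totals alone). FLN1, a fructokinase-like subunit, rose by 1.84 ± 0.041 in white (adjusted p = 1.8e-27) and 1.15 ± 0.043 in green-white leaves, and PTAC10 by 1.82 ± 0.039 and 1.05 ± 0.041. PTAC12 rose by 1.63 ± 0.036 in white leaves and TRXZ, a plastid thioredoxin, by 1.00 ± 0.050. The exception in white leaves was PTAC7 (−0.28 ± 0.050, adjusted p = 6e-06), whose value was 0.01 (adjusted p = 0.854) with library totals alone. FSD3, at 0.83 in white leaves, lay near the list's median and FSD2, at 0.55, below it.

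Metallothioneins, small proteins that bind copper, gave 2 higher and 2 lower of 5 tested in each class over wild type. Among all tested genes 28.7%, 34.1% and 39.9% were higher and 29.6%, 38.8% and 40% lower in green, green-white and white leaves. MT2A rose by 0.72 ± 0.032 in green leaves, 0.65 ± 0.032 in green-white leaves and 0.70 ± 0.032 in white leaves on the log2 scale, and MT1C by 1.27 ± 0.081, 0.49 ± 0.086 and 0.75 ± 0.084. MT3 fell by 0.27 ± 0.034, 1.04 ± 0.035 and 1.55 ± 0.035 in the same order (adjusted p = 4.83e-08, 1.96e-22 and 3.26e-27). The list's median was 0.453, −0.381 and −0.054, and with library totals alone the white median was 0.24.

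**Figure D5:**
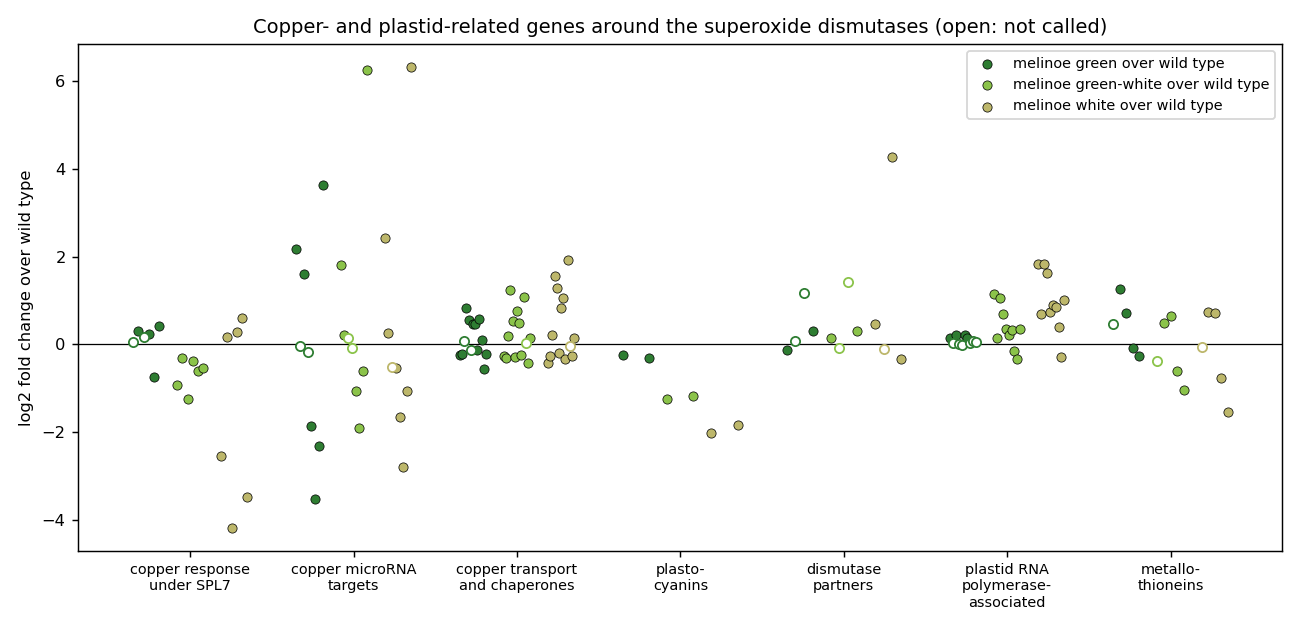
Log2 fold change over wild type of the tested genes of 7 lists around the superoxide dismutases in melinoe green, green-white and white leaves; points are genes, open points were not called, and FRO5, at 0 in wild type, is not drawn. Both plastocyanin genes lie below 0 in all classes, at −2.02 and −1.83 in white leaves, the polymerase-associated genes reach up to 1.84 in white leaves, and the SPL7 list spreads from −4.17 to 0.60 in white leaves.

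White leaves also stood apart in markers of other organs. The 3 seed markers summed to 19.1 to 22.5 CPM in white, 0.174 to 0.453 in green-white and 0 to 0.041 in green melinoe leaves, and 0.0826 to 0.331 in wild type, where 2 of the 3 were at 0. The 3 flower markers summed to 5.6 to 5.96 CPM in white, 1.43 to 2.19 in green-white and 1.6 to 2.74 in green leaves, and 1.81 to 2.15 in wild type. Most of the white sum was PI, at 4.48 CPM against 1.25 in wild type. AP3 had 0.465 against 0.151 CPM, and AG was alike in white, green-white and green leaves (0.824, 0.842 and 0.861 CPM). The part of such transcripts in the white values of the members was not tested.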

How the data were processed

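Libraries of polyadenylated RNA that keep the strand were sequenced on a DNBSEQ instrument, per the labels' protocols. The labels' design text names SOAPnuke 1.5.2 for read filtering, TAIR10 as the genome and HISAT2 2.0.4 for alignment; the submitters' processing notes also list Bowtie2, RSEM and DESeq2, without roles. The authors deposited 3 tables, 1 for each leaf class with wild type. The deposited counts are expected counts (92.8% whole within 0.001), and the file headers also give the authors' log2 fold change and q-value. By the authors' deposited table, the q-values of CSD3 in green (0.1138), SPL7 in green (0.146) and MSD1 in green-white leaves (0.153) were not under 0.05. The union of the tables held 25169 genes, 23214 of them in all 3, and 9750 missing values were set to 0. Columns could be tied to groups but not to single samples, so only the counts were used, and 18 per-sample columns of TPM were not. Where the planned design named TPM, it was computed from the counts and the median exonic length of each gene's transcripts in TAIR10.1, which is an annotated and not an effective length.

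Counts were rounded and tested with edgeR 4.0.16 in R 4.3.3 (TMM, filterByExpr, quasi-likelihood, group means, 8 residual degrees of freedom; Benjamini-Hochberg over 19424 genes), after a check on simulated data. Chi-square per gene between libraries of a group was 1.55 to 3.75, so none was a copy of another. DESeq2 1.42.0, other scalings and left-out libraries were alternatives. Sequences, gene positions and motifs were read from TAIR10.1; the tables hold no coordinates. Counting intervals and floors cover counting error only.

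The members and lists were chosen with earlier results of these data known. Named genes are all members, up to 4 called genes of each list per comparison by size of change with 1 in the other direction, FMN/FHY, and the 3 genes nearest to FSD1 and CSD2; COX5B-1, COPT1 and COPT6 in white leaves, LAC17 in green-white and white leaves, PAA2 and COPT2 outside the rule, PTAC6, MSD2 where it was not called and values of named genes in other comparisons were added after their values were seen. The remaining marker lists summed, in green, green-white and white leaves and in wild type, to at most 426, 373, 222 and 545 CPM (phloem), 377, 506, 493 and 723 CPM (epidermis), 82.8, 64.5, 74.5 and 76 CPM (guard cell) and 3.81, 3.7, 3.2 and 5.34 CPM (trichome).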

Additional observations from a re-analysis of the deposited data

Results flagged for a closer look

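The change over wild type differed between melinoe leaf classes for 24 of 27 pairs of class and member, by the test of the difference itself in the 12-library edgeR fit (adjusted p under 0.05). These tests called 14094 of the 19424 genes for white against green leaves, 12480 for white against green-white leaves and 11561 for green-white against green leaves, so a call alone does not set the members apart. White minus green leaves gave log2 differences of −3.22 for FSD1, 1.04 for FSD2, 0.84 for FSD3, 1.28 for CSD1, 1.41 for CSD2, −0.15 for CSD3, −0.34 for MSD1, 1.66 for CCS and 0.34 for SPL7. With library totals alone the value of CSD3 turned to 0.13 (adjusted p = 0.0264) and that of MSD1 was −0.07 (adjusted p = 0.0518), and with DESeq2 the CSD3 call ended (adjusted p = 0.0792). White minus green-white leaves gave −3.38 for FSD1, 0.63 for FSD3, 0.24 for CSD1, 0.42 for CSD2, −0.20 for MSD1, 0.75 for CCS and 0.25 for SPL7. Green-white minus green leaves gave 0.16 for FSD1, 1.02 for FSD2, 0.21 for FSD3, 1.04 for CSD1, 1.00 for CSD2, −0.21 for CSD3, −0.15 for MSD1 and 0.91 for CCS; with library totals alone CSD3 and MSD1 turned to 0.02 and 0.09 and SPL7 was called at 0.32. In the 12-library fit FSD2 was the only member called in opposite directions over wild type, lower in green and higher in green-white and white leaves. Without green C, MSD1 was also called higher in green leaves (0.1034, adjusted p = 0.00825) and kept its fall in white leaves. The share of all tested genes called in opposite directions was not counted.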

How the results depend on the processing

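Over 18 alternatives for each member in each of 6 comparisons, 950 values kept their direction and their side of the threshold, 16 lost the call, 2 gained it and 4 turned round; every call of FSD1, FSD2, CSD1, CSD2 and CCS kept both. All 4 reversals came with library totals alone, a setting chosen after seeing the data: MSD1 at 0.1497 in green-white over wild type and 0.0863 in green-white over green leaves, and CSD3 at 0.0214 in green-white over green and 0.1293 in white over green leaves. The 2 gained calls were SPL7 in green-white over green leaves with library totals alone (0.3239, adjusted p = 1.61e-05) and MSD1 in green over wild type without green C. The alternative removes factors that differ between the groups, and which scaling is right was not tested. Upper-quartile factors moved the median of all genes in green-white over wild type to −0.108. The iron share with CPM in place of TPM was 21.15% in green, 16.69% in green-white, 6.021% in white and 63.08% in wild-type leaves. With FSD1 left out of both the iron genes and the sum, the share was 3.899%, 3.787%, 3.913% and 6.175%, by the construction of those sums. With the longest transcript of each gene, also chosen after seeing the data, it was 17.05% in green, 13.23% in green-white and 56.5% in wild-type leaves, and it stayed within the replicate spread in white leaves. The count of members called stayed within 1.5 times under all alternatives, but its split did not: the members called lower with library totals alone were 1 in place of 3 in white over wild type and in white over green leaves, and none in place of 2 in green-white over green leaves. Of all calls with library totals alone, 68.4%, 73.5% and 80% were higher in these comparisons. No paired analysis was possible because the columns carry the letters A to C and the labels carry numbers, with nothing to tie them. The common biological coefficient of variation was 0.0272, so small differences pass the test.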
